A study of Homo sapiens with 6 samples.

Results

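Collagens, laminins and integrins are the building blocks of the extracellular matrix and the receptors through which cells hold on to it. The genes described here were chosen by a rule on their symbols: COL or LAM symbols for a single chain of a collagen or laminin, and ITGA or ITGB symbols for an alpha or beta chain of an integrin. Of 12308 different rows in the expression table, 43 carried such a symbol, namely 16 collagens, 10 laminins, and 17 integrins, of which 11 were alpha and 6 were beta chains.

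Collagens wind into helical rods that form fibrils or sheets around tissues. Laminins are cross-shaped proteins made of an alpha, a beta, and a gamma chain, and they carry the basement membrane on which epithelial cells sit. Integrins pair an alpha with a beta chain in the cell membrane, where they bind collagens, laminins, or fibronectin on the outside and connect to actin or keratin filaments on the inside. The pair sets which ligand is bound, so a shift in a single chain can change what a cell adheres to. In ovarian cancer, these genes are known from the attachment of tumor cells to the matrix of the peritoneum.

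RNA-seq of total RNA was performed on 3 libraries of OVCAR5, the parental ovarian cancer cell line, and 3 libraries of OVCAR5R, its derivative resistant to the CHK1 inhibitor prexasertib (Prex). In OVCAR5R, Prex had been raised to 3 µM in a selection of 3 to 4 months. The stock was held in 2 µM, and cells had spent 4 or more days free of the drug when they were used. Both lines grew in the same RPMI1640 medium with serum and insulin, and no stromal cells are described. The libraries came from 3 cultures of each line, and OVCAR5R is a single resistant line, so p-values measure the spread between cultures and not between independently selected lines. The comparison asks how transcript levels of the resistant line differ from those of its parent.

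Low normalized values of a library were multiples of the same small amount, the value of a single estimated read. By this measure the OVCAR5 libraries held 35.8 to 41.3 and the OVCAR5R libraries 50.3 to 55.1 estimated reads in units of 1e6, and a normalized value of 1 corresponded to 34.5 to 55.2 estimated reads. OVCAR5 replicate 2 stood apart from the other libraries. Its r across genes was 0.898 and 0.883 with OVCAR5 replicates 1 and 3, which had an r of 0.955 with each other, and the OVCAR5R libraries had an r of 0.947 to 0.963 among themselves. Of 8 epithelial markers, 6 were among the rows, and their values summed to 17308 in OVCAR5 replicate 2, to 2388 and 2467 in the other OVCAR5 libraries, and to 3605 to 4816 in OVCAR5R. KRT19, an epithelial keratin, was at 1341 in OVCAR5 replicate 2 and at 3.09 to 10.7 elsewhere, and EPCAM was at 597 and at 11.9 to 31.7 elsewhere. KRT7 was at 939 in OVCAR5 replicate 2, at 85.8 and 92.7 in replicates 1 and 3, and at 431 to 583 in OVCAR5R. Its log2 fold change without OVCAR5 replicate 2 was 2.44 (adjusted p = 0.0185, limma). Without that library KRT7, KRT8, KRT18, and EPCAM were higher in OVCAR5R without overlap, and KRT19 and CLDN4 were lower. Of 5 ovarian serous markers, 4 were among the rows with sums of 11.3 to 34.0 in OVCAR5 and 8.63 to 11.3 in OVCAR5R. PAX8 was at 8.38 to 11.4 in OVCAR5 and 4.38 to 5.66 in OVCAR5R. WT1 reached at most 0.0731 in OVCAR5 and 0.727 in OVCAR5R. Fibroblast markers (2 of 8 among the rows, PDGFRB and TAGLN) summed to 2.86 to 3.32 in OVCAR5 and 2.96 to 7.70 in OVCAR5R, leukocyte markers (2 of 7, CD14 and LAPTM5) to 33.0 to 61.3 and 30.5 to 77.1. The 5 endothelial markers were not among the rows, nor were CDH1, CLDN3, and MUC16 of the first lists. The part of OVCAR5 replicate 2 in each result was not tested beyond leaving it out, and fold changes are therefore also given without it.

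No collagen, laminin, or integrin gene passed the threshold in OVCAR5R against OVCAR5. With an adjusted p under 0.05 over 11766 genes tested by limma, 14 genes were called (0.119%), and 0 of the 41 members that could be tested were among them. LAMC3 and ITGA4 had too low values to be tested. In bulk RNA, a different share of cells with a transcript and a different amount per cell cannot be told apart. At an unadjusted p under 0.05, 5 members had higher values in OVCAR5R (COL12A1, COL4A2, ITGA2, LAMA1, and LAMA4), which is 12.2% of those tested beside 4.14% of all genes. Another 4 had lower values (ITGA1, ITGB2, ITGB4, and ITGB8), which is 9.76% beside 6.25%. The 3 OVCAR5R libraries all lay above the 3 OVCAR5 libraries for 6 members, or 14.6% beside 8.40% of all genes, and all below for 4 members, or 9.76% beside 8.18%. The share of members whose lines did not overlap was thus close to the background in the downward direction. All 4 members in that direction were integrins, as were 3 of the 6 upward members and 16 of the 41 tested members.

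Leaving out OVCAR5 replicate 2, 29 genes passed the adjusted threshold (0.246%, limma) and again 0 members. At an unadjusted p under 0.05, 6 members then had higher values (14.6% beside 4.32% of all genes) and 7 had lower values (17.1% beside 6.52%). COL1A1 was among those that joined the higher members, LAMA4 left them, and ITGA6, ITGAV, and ITGB3 joined the lower ones. Without this library the lines did not overlap for 9 higher members (22.0% beside 13.8%) and for 10 lower members (24.4% beside 13.7%). All the lower members but COL13A1 were integrins, as were 4 of the 9 higher members. The names in these counts were picked by the counts themselves, after their values were seen.

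**Figure D1:**
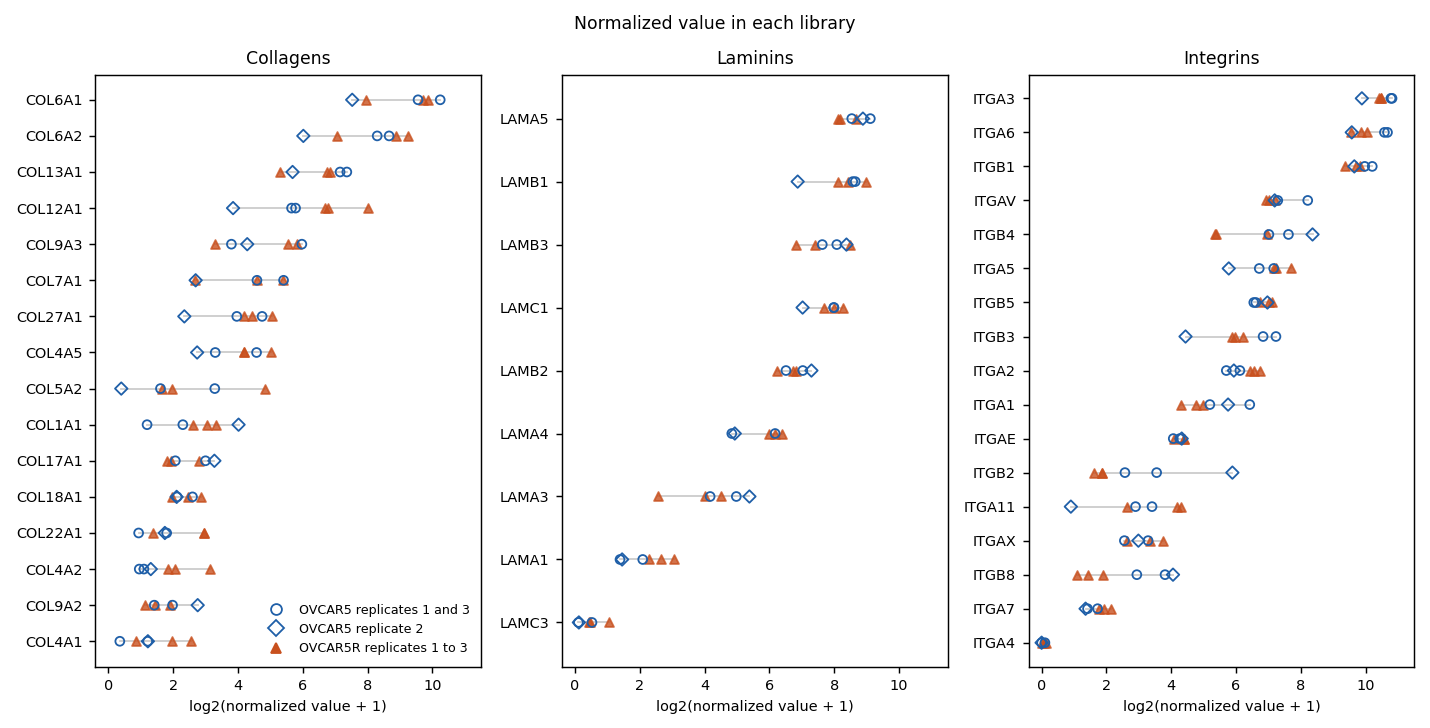
Normalized value of 42 collagen, laminin, and integrin genes in each library, as log2(value + 1) on the x axis, with 1 row of points per gene. Open circles are OVCAR5 replicates 1 and 3, the open diamond is OVCAR5 replicate 2, and filled triangles are the 3 OVCAR5R libraries. The diamonds lie far to the left for COL6A1, COL6A2, and ITGB3 and far to the right for COL1A1 and ITGB2, and the triangles of ITGB8 and ITGA2 stand clear of the other points.

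Collagens had the highest and integrins the lowest median fold change of the families, and these medians leaned on OVCAR5 replicate 2. The median log2 fold change (OVCAR5R minus OVCAR5) was 0.61 over 16 collagens, 0.31 over 9 laminins, and -0.10 over 16 integrins, beside -0.01 over all genes tested. Of the collagens, 12 had a fold change above 0 and 4 below, of the laminins 5 and 4, and of the integrins 7 and 9. Without OVCAR5 replicate 2 the medians were 0.14, -0.10, and -0.39 beside 0.00 over all genes, so the collagens lost most of their upward median and the laminins turned below 0. The median absolute log2 fold change was 0.53 over all members beside 0.25 over all genes, and the median SD within OVCAR5 was 1.01 for collagens, 0.56 for laminins, and 0.57 for integrins on the log2 scale, beside 0.34 over all genes. Within OVCAR5R the median SD was 0.80, 0.40, and 0.22 beside 0.25, the most even family being the integrins.

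**Figure D2:**
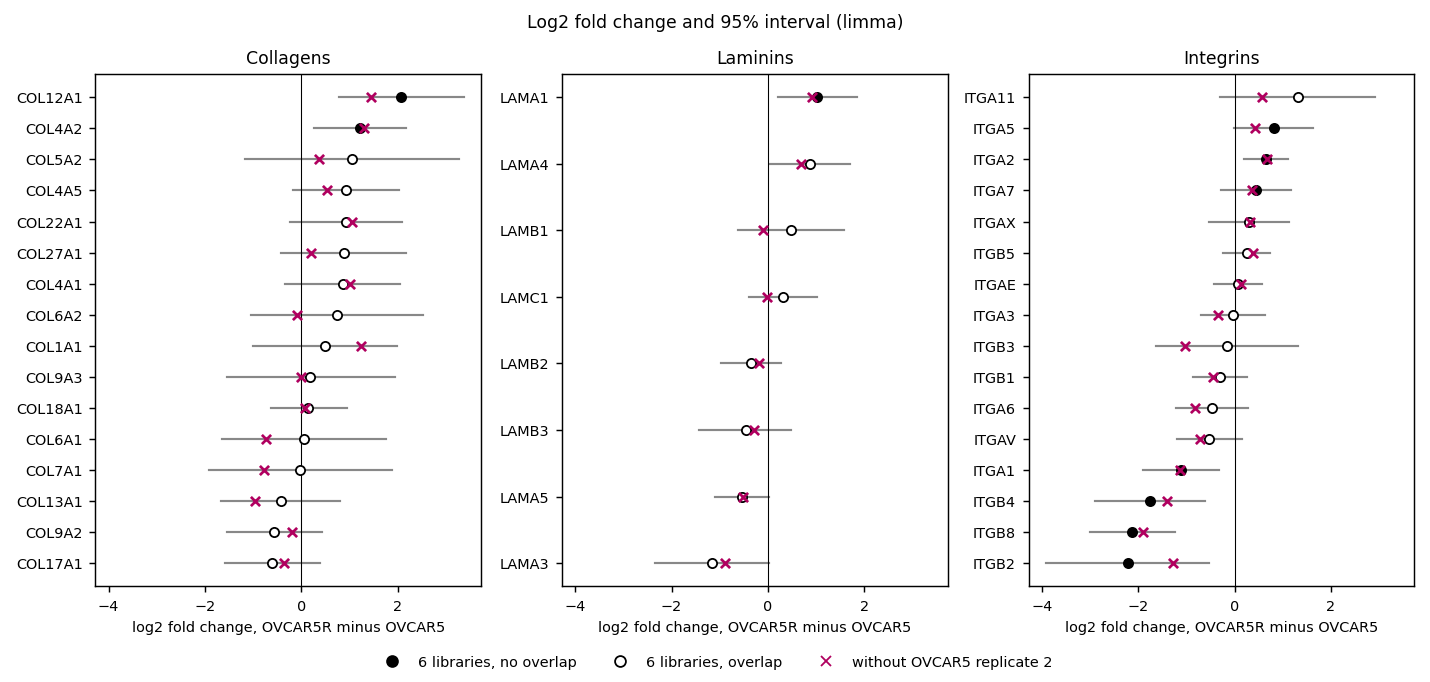
Log2 fold change (OVCAR5R minus OVCAR5, x axis) of 40 tested members by limma, with bars for the 95% interval over all 6 libraries. Filled circles mark members whose lines do not overlap, open circles those that overlap, and crosses the value without OVCAR5 replicate 2. COL12A1 at 2.07 and ITGB2 at -2.22 are the outermost members, and most crosses of the collagens lie to the left of their circles.

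ITGA1 and ITGA2, the alpha chains of the main collagen-binding integrins, had values in opposite directions. Both pair with ITGB1, and as background the ITGA1 receptor prefers the network collagen type IV while the ITGA2 receptor prefers fibrillar collagens. ITGA1 had normalized values of 84.7, 52.9, and 35.5 in OVCAR5 and 25.9, 30.3, and 18.8 in OVCAR5R (mean 57.7 ± 25.0 against 25.0 ± 5.78, SD, n = 3 libraries each). ITGA2 had 68.4, 60.0, and 50.9 in OVCAR5 and 92.6, 105, and 86.0 in OVCAR5R (mean 59.8 ± 8.76 against 94.5 ± 9.61). Every OVCAR5R library was thus below every OVCAR5 library for ITGA1 and above for ITGA2, and OVCAR5 replicate 2 lay between the other OVCAR5 libraries for both. The log2 fold change was -1.11 for ITGA1 (95% interval -1.89 to -0.33, adjusted p = 0.323, limma). It was 0.66 for ITGA2 (0.19 to 1.12, adjusted p = 0.325, limma). Without OVCAR5 replicate 2 the fold changes were -1.13 and 0.67. Within a library, the ratio of ITGA2 to ITGA1 was 0.807, 1.13, and 1.43 in OVCAR5 and 3.58, 3.46, and 4.57 in OVCAR5R, a pair chosen after its values were seen.

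The genes lie side by side on the plus strand of chromosome 5 with 30.1 kb between them, ITGA1 at chr5:52787896-52959210 and ITGA2 at chr5:52989326-53094779 (hg38, GENCODE). The 19 tested neighbours within 5 Mb of ITGA1 had a median log2 fold change of -0.38. Their promoters are shown because these adjacent genes had opposite values. Each is the 200 bases upstream of the first annotated transcript start, 5′ to 3′, from RefSeq on GRCh38.p14, and capitals mark the GC box, GGGCGG on either strand. The windows are chr5:52787696-52787895 for ITGA1 and chr5:52989126-52989325 for ITGA2, both on the plus strand.
ITGA1: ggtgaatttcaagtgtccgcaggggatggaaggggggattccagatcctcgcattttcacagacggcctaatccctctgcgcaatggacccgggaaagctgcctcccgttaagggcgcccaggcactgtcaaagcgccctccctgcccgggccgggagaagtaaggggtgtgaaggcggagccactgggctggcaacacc
ITGA2: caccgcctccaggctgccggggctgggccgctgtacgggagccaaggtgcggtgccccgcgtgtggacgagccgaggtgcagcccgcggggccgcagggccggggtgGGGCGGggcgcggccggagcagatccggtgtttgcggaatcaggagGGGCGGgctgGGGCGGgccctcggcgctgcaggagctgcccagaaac
The ITGA2 window held 3 GC boxes and the ITGA1 window 0. A GC box was present in 40.1% of 35093 RefSeq promoter windows of this length. Neither window held the CCAAT box (CCAAT, found on either strand in 28.0% of windows) or the TATA box (TATAAA, in 8.6%). Both also lacked the E-box (CACCTG, in 14.2% of windows) and the AP-1 site (TGANTCA, in 5.4%). These are matches of letters and not measured sites. PELO lies within ITGA1 on the same strand, and how reads in shared exons were assigned is not given in the sources used here.

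ITGA5, the alpha chain of the classical fibronectin receptor, also had higher values in OVCAR5R. It was at 104, 53.7, and 142 in OVCAR5 and at 149, 206, and 142 in OVCAR5R, so the lowest OVCAR5R and the highest OVCAR5 library nearly met. The log2 fold change was 0.81 (95% interval -0.01 to 1.63, adjusted p = 0.487, limma) and 0.42 without OVCAR5 replicate 2, its lowest library. ITGB1, the shared partner of most alpha chains, was at 1175, 800.3, and 999.8 in OVCAR5 and 833, 656, and 913 in OVCAR5R, with overlap and a log2 fold change of -0.30, and without overlap at -0.45 when OVCAR5 replicate 2 was left out. Relative to ITGB1 in the same library, ITGA5 was at 0.0889, 0.0671, and 0.142 in OVCAR5 and 0.179, 0.314, and 0.155 in OVCAR5R. The ratio of ITGA2 to ITGB1 was 0.0582, 0.0749, and 0.0509 in OVCAR5 and 0.111, 0.160, and 0.0942 in OVCAR5R. Neither ratio overlapped between the lines. An exact two-sided permutation test of 3 against 3 libraries gave p = 0.1 for each, the smallest it can give. ITGA5 and ITGA2 alone did not overlap either, so these ratios are no separate evidence of a shift between partners. ITGA3, a laminin receptor chain, kept an overlapping ratio to ITGB1 of 1.18 to 1.75 in OVCAR5 and 1.56 to 2.08 in OVCAR5R.

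ITGB8 had the lowest adjusted p of all members. This chain pairs with ITGAV and is known for the activation of latent TGF-beta. Its values were 13.0, 15.6, and 6.66 in OVCAR5 and 1.15, 2.71, and 1.68 in OVCAR5R, a mean of 11.7 ± 4.58 against 1.85 ± 0.796, or 6.35 times as much in OVCAR5. Each OVCAR5 library was above each OVCAR5R library. The log2 fold change was -2.13 (95% interval -3.01 to -1.24, adjusted p = 0.146, limma) and -1.90 without OVCAR5 replicate 2 (adjusted p = 0.158, limma). The 28 tested neighbours of ITGB8 within 5 Mb on chromosome 7 had a median of -0.02.

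ITGAV and its other beta partners overlapped between the lines over all 6 libraries. ITGAV was at 295, 145, and 155 in OVCAR5 and 127, 119, and 146 in OVCAR5R, which overlap (log2 fold change -0.53, adjusted p = 0.572, limma). Without OVCAR5 replicate 2, ITGAV did not overlap and had -0.71 (adjusted p = 0.447, limma). ITGB5, a vitronectin receptor chain, was at 96.6, 124, and 92.4 in OVCAR5 and 128, 106, and 138 in OVCAR5R, with a log2 fold change of 0.25, and 0.38 without OVCAR5 replicate 2. ITGB3, the beta chain of the vitronectin receptor and of the platelet fibrinogen receptor, was at 113, 20.7, and 149 in OVCAR5 and 72.5, 61.2, and 57.2 in OVCAR5R. The OVCAR5R values of ITGB3 thus lay within the wide range of OVCAR5, below replicates 1 and 3 and above replicate 2. Its log2 fold change was -0.16 over 6 libraries and -1.03 without OVCAR5 replicate 2 (adjusted p = 0.165, limma). The ratio of ITGAV to ITGB8 was 22.8, 9.34, and 23.2 in OVCAR5 and 110.3, 43.9, and 87.2 in OVCAR5R, and the ratio of ITGAV to ITGB5 was 3.06, 1.17, and 1.67 against 0.987, 1.13, and 1.06. Neither ratio overlapped (exact permutation p = 0.1 each), whereas the ratios of ITGAV to ITGB1 and to ITGB3 did. ITGB8 alone already separated the lines, so the ratio of ITGAV to ITGB8 is no separate evidence.

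ITGB4, the beta chain of the hemidesmosome that ties keratin filaments to laminin, was at 195, 327, and 128 in OVCAR5 and 39.7, 41.0, and 124 in OVCAR5R. The lines did not overlap, although OVCAR5R replicate 3 reached nearly the level of OVCAR5 replicate 3. The mean was 217 ± 101 in OVCAR5 and 68.3 ± 48.5 in OVCAR5R, a log2 fold change of -1.76 (adjusted p = 0.304, limma), and -1.41 without OVCAR5 replicate 2. ITGA6, its only alpha partner, was at 1628, 758, and 1525 in OVCAR5 and 1044, 915, and 744 in OVCAR5R. OVCAR5 replicate 2 lay among the OVCAR5R libraries for ITGA6, whose log2 fold change was -0.47, and -0.82 without that library (adjusted p = 0.293, limma). ITGA6 also pairs with ITGB1. Its ratio to ITGB4 varied from 2.32 to 11.9 in OVCAR5 and from 5.99 to 26.3 in OVCAR5R, with overlap.

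ITGB2, the beta chain of the leukocyte integrins, had the lowest fold change of all members, set largely by a single library. It was at 4.94, 58.1, and 10.7 in OVCAR5 and 2.64, 2.07, and 2.67 in OVCAR5R. OVCAR5 replicate 2 was 7.42 times the mean of replicates 1 and 3, and those replicates were still above every OVCAR5R library. Its log2 fold change came to -2.22 (95% interval -3.91 to -0.52, adjusted p = 0.365, limma) and -1.28 without that library (adjusted p = 0.306, limma). CD14, a monocyte marker, was at 20.2 in OVCAR5 replicate 2 and 2.02 to 11.9 elsewhere, whereas LAPTM5 was lowest in that library, at 12.8 against 28.5 to 74.2. PTPRC was not among the rows, and the part of leukocyte genes in this result was not tested. ITGAX, a leukocyte partner of ITGB2, was at 8.74, 6.92, and 4.87 in OVCAR5 and 5.24, 12.5, and 9.19 in OVCAR5R, with overlap.

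The other integrin alpha chains overlapped or were low. ITGA3 had the highest mean value of the integrins at 1794, 941, and 1753 in OVCAR5 and 1426, 1361, and 1426 in OVCAR5R, with a log2 fold change of -0.03, and -0.34 without OVCAR5 replicate 2. ITGA11, a collagen receptor chain of mesenchymal cells, was at 6.45, 0.869, and 9.60 in OVCAR5 and 5.20, 18.9, and 17.2 in OVCAR5R, and its fold change of 1.31 came down to 0.56 without OVCAR5 replicate 2. ITGA7, a laminin receptor chain of muscle, did not overlap between the lines but was low, at 1.56 to 2.31 in OVCAR5 and 2.42 to 3.37 in OVCAR5R. ITGAE, which pairs with a beta chain that was not among the rows, was even in all libraries at 15.7 to 20.2. ITGA4 reached at most 0.0905, which is 5 estimated reads.

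**Figure D3:**
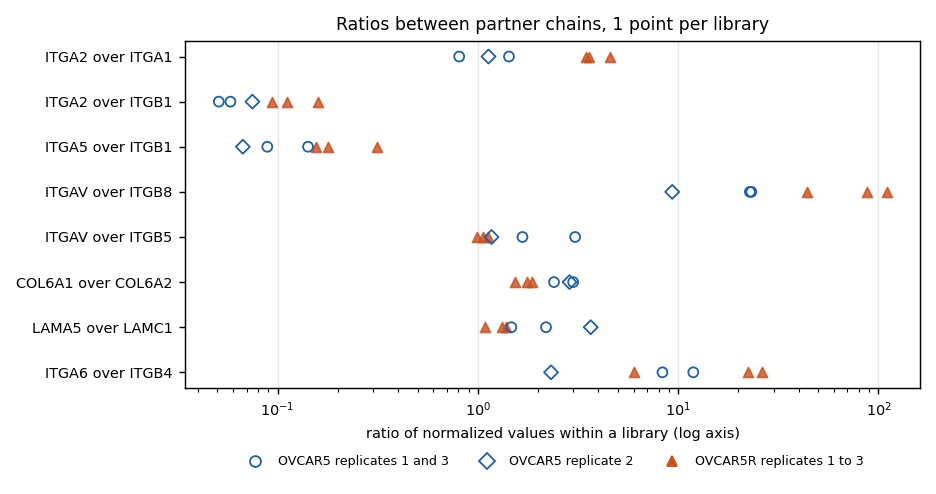
Ratio between the normalized values of chains within each library (x axis, log scale), with 1 point per library and the same symbols as in the plot of values by gene. The chains are partners except ITGA2 and ITGA1, which both pair with ITGB1 and whose ratio was chosen after its values were seen. The ratios of ITGA2 to ITGA1 and of ITGAV to ITGB8 separate the lines most widely, and the ratio of ITGA6 to ITGB4 overlaps.

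The laminins made of LAMA5, LAMB1 or LAMB2, and LAMC1 are the common basement membrane forms of epithelia. LAMA5, the laminin with the highest mean value, was at 552, 471, and 371 in OVCAR5 and 276, 286, and 404 in OVCAR5R, with overlap and a log2 fold change of -0.53 (adjusted p = 0.493, limma), and -0.51 without OVCAR5 replicate 2. LAMC1 was at 252, 129, and 253 in OVCAR5 and 252, 205, and 305 in OVCAR5R. LAMB1 was at 399.7, 116, and 379 in OVCAR5 and 279, 339.8, and 507 in OVCAR5R. In both LAMB1 and LAMC1, OVCAR5 replicate 2 was the lowest library, and their fold changes of 0.48 and 0.31 went to -0.10 and -0.01 without it. LAMB2 was at 129.5, 156, and 90.1 in OVCAR5 and 106, 73.8, and 112 in OVCAR5R, so OVCAR5 replicate 2 was here the highest library. The ratio of LAMA5 to LAMC1 was 2.19, 3.66, and 1.47 in OVCAR5 and 1.09, 1.39, and 1.32 in OVCAR5R, without overlap (exact permutation p = 0.1). The ratio of LAMB1 to LAMB2 overlapped, and the other ratios within this group were not computed.

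Other alpha chains of this group of laminins had higher values in OVCAR5R. LAMA4, the alpha chain of vessel and mesenchymal laminins, was at 27.6, 29.5, and 71.2 in OVCAR5 and 83.5, 62.0, and 71.3 in OVCAR5R, overlapping only through OVCAR5 replicate 3. Its log2 fold change was 0.87 (95% interval 0.04 to 1.70, adjusted p = 0.458, limma), and 0.68 without OVCAR5 replicate 2. LAMA1, the alpha chain of the early embryo, was at 3.26, 1.74, and 1.62 in OVCAR5 and 3.85, 5.29, and 7.40 in OVCAR5R without overlap. These values are low, and the log2 fold change of 1.02 (adjusted p = 0.387, limma) understates the ratio of the means of 2.50. It was 0.92 without OVCAR5 replicate 2.

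LAMA3 and LAMB3 are chains of the laminin of hemidesmosomes, the ligand of the ITGA6 and ITGB4 receptor, and each had its own pattern over the libraries. LAMA3 was at 30.5, 40.7, and 17.0 in OVCAR5 and 4.92, 15.0, and 21.5 in OVCAR5R. LAMB3 was at 197, 331, and 269 in OVCAR5 and 355, 169, and 111 in OVCAR5R. OVCAR5R replicate 1 was the highest library for LAMB3 and the lowest for LAMA3, and OVCAR5 replicate 2 was the highest for LAMA3. Both overlapped between the lines, with log2 fold changes of -1.16 and -0.46, and of -0.89 and -0.29 without OVCAR5 replicate 2. The ratio of LAMB3 to LAMA3 ranged from 6.45 to 15.8 in OVCAR5 and from 5.15 to 72.1 in OVCAR5R. LAMC3 was at 0.0760 to 1.05 in the 6 libraries and was not tested.

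COL12A1 had the highest log2 fold change of all members. Its product is a fibril-associated collagen, which decorates collagen fibrils in tendon, skin, and tumor stroma. It was at 53.8, 13.4, and 49.3 in OVCAR5 and 109.6, 101, and 259 in OVCAR5R, a mean of 38.8 ± 22.1 against 156 ± 88.6, or 4.03 times as much in OVCAR5R. Each OVCAR5R library was above each OVCAR5 library, with OVCAR5 replicate 2 the lowest and OVCAR5R replicate 3 the highest. The log2 fold change was 2.07 (95% interval 0.78 to 3.37, adjusted p = 0.298, limma) and 1.45 without OVCAR5 replicate 2 (adjusted p = 0.276, limma). The 22 tested neighbours within 5 Mb on chromosome 6 had a median of -0.02. The gene lies at chr6:75084326-75206051 on the minus strand, and the window before its start, chr6:75206054-75206253, is shown as the promoter of the collagen with the widest separation.
COL12A1: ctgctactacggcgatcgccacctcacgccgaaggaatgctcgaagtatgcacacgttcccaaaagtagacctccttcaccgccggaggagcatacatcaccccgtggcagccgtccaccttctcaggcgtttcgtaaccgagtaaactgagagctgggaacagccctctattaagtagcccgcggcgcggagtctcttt
None of the 5 motifs spelled out above was in this window, so it holds no capitals.

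COL6A1 and COL6A2, chains of the beaded filaments of type VI collagen, had the highest collagen values. COL6A1 was at 751, 183, and 1207 in OVCAR5 and 246, 927, and 833 in OVCAR5R, and COL6A2 at 313, 63.7, and 404 and at 132, 604, and 473. Both were low in OVCAR5 replicate 2 and, among OVCAR5R libraries, in replicate 1, so neither line differed from the other beyond its own spread. The log2 fold changes were 0.06 for COL6A1 and 0.74 for COL6A2, with standard errors of 0.74 and 0.77, and they were -0.73 and -0.08 without OVCAR5 replicate 2. The ratio of COL6A1 to COL6A2 varied less, at 2.40, 2.87, and 2.99 in OVCAR5 and 1.87, 1.53, and 1.76 in OVCAR5R. This ratio did not overlap (exact permutation p = 0.1), although the range of each gene alone did. The genes lie 93.0 kb apart on chromosome 21, where 40 tested neighbours of COL6A1 within 5 Mb had a median log2 fold change of 0.05.

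Among the basement membrane collagens, COL4A2 was at 1.14, 1.48, and 0.938 in OVCAR5 and 7.80, 3.15, and 2.57 in OVCAR5R, without overlap (log2 fold change 1.22, adjusted p = 0.375, limma), and with 1.31 when OVCAR5 replicate 2 was left out. Its partner COL4A1, which shares a promoter region with it on the opposite strand, was at 1.32, 1.33, and 0.279 in OVCAR5 and 4.84, 0.814, and 2.89 in OVCAR5R. COL4A5, which assembles with other type IV chains, was at 22.8, 5.68, and 8.84 in OVCAR5 and 17.3, 17.1, and 31.7 in OVCAR5R. Only COL4A2 separated the lines, and all 3 had a fold change above 0 with and without OVCAR5 replicate 2. The annotated spans of COL4A1 and COL4A2 overlap, so reads there cannot be told apart without strand. COL18A1, the source of endostatin, was at 2.93 to 6.29 in all libraries.

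The fibril-forming and anchoring collagens overlapped between the lines. COL1A1, the main chain of bone and skin collagen, was at 3.92, 15.2, and 1.29 in OVCAR5 and 9.03, 5.05, and 7.32 in OVCAR5R. COL5A2 was at 8.74, 0.319, and 2.05 in OVCAR5 and 2.13, 27.6, and 2.91 in OVCAR5R. COL7A1, the anchoring fibril collagen under epithelia, was at 23.0, 5.47, and 41.4 in OVCAR5 and 5.39, 23.0, and 40.7 in OVCAR5R. For COL1A1 the outlying library was OVCAR5 replicate 2, without which the OVCAR5R values lay above (log2 fold change 1.25, adjusted p = 0.358, limma). For COL5A2 it was OVCAR5R replicate 2 (log2 fold change 1.05, and 0.37 without OVCAR5 replicate 2), and for COL7A1 the lines covered almost the same range. The partner chains of COL1A1 and COL5A2 were not among the rows.

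The remaining collagens overlapped between the lines over all 6 libraries. COL13A1, a transmembrane collagen, was at 141, 50.4, and 163 in OVCAR5 and 107, 114, and 38.6 in OVCAR5R. Its log2 fold change was -0.43, and -0.95 and without overlap when OVCAR5 replicate 2 was left out. COL9A3, a cartilage fibril-associated chain, ranged from 12.9 to 61.7 in OVCAR5 and from 8.71 to 55.5 in OVCAR5R. COL27A1 ranged from 4.08 to 25.8 and from 17.3 to 32.1, with its lowest value in OVCAR5 replicate 2. The log2 fold change of COL27A1 was 0.88, and 0.21 without that library. COL17A1, the transmembrane collagen of the hemidesmosome, was at 3.19 to 8.66 in OVCAR5 and 2.50 to 6.01 in OVCAR5R, with a log2 fold change of -0.60, and -0.35 without OVCAR5 replicate 2. COL9A2 and COL22A1 stayed at or below 6.77 in every library.

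OVCAR5 replicate 2 was lower than the mean of replicates 1 and 3 for 10 of 16 collagens, 4 of 9 laminins, and 9 of 16 integrins, beside 5991 of 11766 genes tested. The median difference on the log2 scale was -0.90 for collagens, 0.06 for laminins, and -0.13 for integrins, beside -0.02 for all genes. The median absolute difference was 1.38, 0.58, and 0.62, beside 0.42. Of the collagens, 37.5% had their lowest value of all 6 libraries in OVCAR5 replicate 2, beside 26.8% of all genes. The low genes included COL6A1, COL6A2, and COL7A1, 5.35 to 5.88 times lower than the mean of replicates 1 and 3, and also ITGB3 (6.33 times lower), ITGA11, and ITGA5. COL1A1 and ITGB2 were 5.83 and 7.42 times higher in it.

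**Figure D4:**
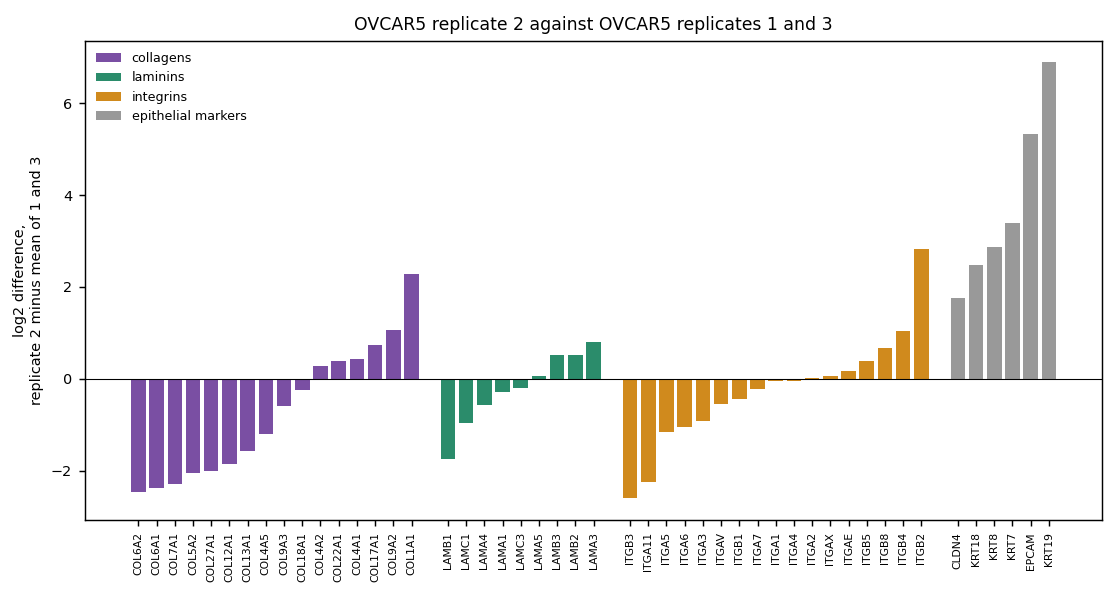
Difference between OVCAR5 replicate 2 and the mean of OVCAR5 replicates 1 and 3 on the log2 scale (y axis) for 42 collagen, laminin, and integrin genes and for 6 epithelial markers, with bars from 0. The bars of the collagens point mostly down, from COL6A2 upward to COL1A1, and all epithelial markers point up, KRT19 highest.

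Per length, 3 integrins had the highest means over the 6 libraries. The normalized value per kb of the longest coding transcript was 297 for ITGA3, 237 for ITGB1, and 196 for ITGA6, as the mean of 6 libraries. The ranges over libraries were 193 to 367, 173 to 311, and 132 to 289.8, so these 3 overlapped. COL6A1 followed at 163 and COL6A2 at 95.8, with ranges of 43.2 to 285 and 18.4 to 175. The range of COL6A1 also overlapped those of all 3 integrins. The laminins were led by LAMB1 at 58.4, LAMB3 at 55.4, and LAMA5 at 34.4 per kb. Among receptors for fibronectin and vitronectin, ITGA5 was at 29.9, ITGB5 at 26.2, ITGAV at 23.4, and ITGB3 at 19.8. ITGA2 at 9.80 and ITGA1 at 3.84 were lower, with ranges per kb in OVCAR5 of 6.47 to 8.69 and 3.30 to 7.88, and in OVCAR5R of 10.9 to 13.3 and 1.75 to 2.82. COL4A1 at 0.289 and LAMC3 at 0.0642 were near the bottom.

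Genes that act with these families were taken from 4 lists of the enzymes that make collagen, the other basement membrane proteins, the adaptors inside the cell, and the receptors other than integrins. Over 6 libraries none passed the adjusted threshold by limma, and without OVCAR5 replicate 2 TNC did. The shares of all genes with an unadjusted p under 0.05, 4.14% higher and 6.25% lower (4.32% and 6.52% without that library), stand beside the counts of each list. Of 27 tested genes for collagen making and crosslinking (29 of 34 listed symbols, some of them older names of the same gene, were among the rows), 12 had a fold change above 0 and 15 below, with a median of -0.05, and an unadjusted p under 0.05 was found for 3 higher (CRTAP, LOXL2, and PCOLCE2) and 1 lower (SEC24D). These were 2 and 3 without OVCAR5 replicate 2, with a median of -0.10. LOXL2, a crosslinking oxidase, was at 151, 32.3, and 168 in OVCAR5 and 214, 397, and 279.5 in OVCAR5R (log2 fold change 1.60, adjusted p = 0.406, limma), and 0.85 without OVCAR5 replicate 2. PCOLCE2, an enhancer of procollagen cleavage, was at 2.78, 0.811, and 6.03 in OVCAR5 and 7.58, 12.8, and 14.4 in OVCAR5R. SEC24D, a coat protein for the export of procollagen, was at 72.4, 44.8, and 35.5 in OVCAR5 and 13.6, 19.8, and 18.2 in OVCAR5R (log2 fold change -1.46, adjusted p = 0.182, limma), and -1.52 without OVCAR5 replicate 2. These 3 separated the lines, whereas LOX, at 56.2, 11.4, and 34.1 in OVCAR5 and 8.59, 18.6, and 15.4 in OVCAR5R, did so only without OVCAR5 replicate 2.

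Of 11 tested basement membrane and matrix partners (13 of 19 among the rows), 4 had a fold change above 0 and 7 below, with a median of -0.52, 1 higher (THBS1) and 4 lower genes (FN1, FRAS1, HSPG2, and NTN4) with an unadjusted p under 0.05. With AGRN, 5 of the 11 genes were lower without overlap and 0 were higher, beside 8.18% and 8.40% of all genes. In the other lists, 4 of 27 genes for collagen making were higher and 2 lower without overlap. For the adaptors these counts were 4 and 4 of 29, and for the other receptors 0 and 1 of 12. Without OVCAR5 replicate 2, 2 higher and 6 lower genes had an unadjusted p under 0.05, with a median of -0.46. TNC, the matrix protein tenascin C, was at 541, 29.7, and 411 in OVCAR5 and 68.9, 122, and 66.0 in OVCAR5R. OVCAR5 replicate 2 was its lowest library, and the other OVCAR5 libraries were above all of OVCAR5R. Its log2 fold change was -1.19 over 6 libraries (adjusted p = 0.697, limma) and -2.50 without OVCAR5 replicate 2 (95% interval -3.23 to -1.78, adjusted p = 0.0414, limma), and it was named after its values were seen. FN1, fibronectin and the ligand of the ITGA5 receptor, was at 2004, 195, and 449 in OVCAR5 and 53.6, 91.1, and 56.7 in OVCAR5R. Every OVCAR5R library was below every OVCAR5 library, which themselves spread over a wide range. Its log2 fold change was -3.08 (95% interval -4.77 to -1.40, adjusted p = 0.249, limma), and -3.84 without OVCAR5 replicate 2 (adjusted p = 0.0736, limma). FRAS1, a basement membrane adhesion protein, was at 20.2, 41.8, and 11.2 in OVCAR5 and 3.79, 1.59, and 8.59 in OVCAR5R (log2 fold change -2.18, adjusted p = 0.298, limma), and -1.71 without OVCAR5 replicate 2. SPARC, a collagen-binding protein, was at 91.4, 10.9, and 102 in OVCAR5 and 26.5, 689.6, and 463 in OVCAR5R, and overlapped through OVCAR5R replicate 1. SPOCK1, a proteoglycan related to SPARC, was at 89.5, 5.42, and 40.2 in OVCAR5 and 38.8, 96.6, and 266 in OVCAR5R.

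Of 29 tested integrin adaptors and focal adhesion genes (30 of 30 among the rows), 15 had a fold change above 0 and 14 below, with a median of 0.07, and 3 higher (ACTN1, FERMT2, and FERMT3) and 2 lower genes (KANK1 and TNS3) with an unadjusted p under 0.05. These were 4 and 7 without OVCAR5 replicate 2, and the median was -0.08. FERMT3, the kindlin of blood cells, was at 0.609, 1.77, and 1.47 in OVCAR5 and 1.79, 29.0, and 22.9 in OVCAR5R, so OVCAR5R replicate 1 was near the OVCAR5 level. TNS4 was at 32.4, 108, and 55.1 in OVCAR5 and 306, 53.8, and 173 in OVCAR5R, with overlap. TNS3, a tensin that binds the tails of beta chains, was at 569.9, 318, and 363 in OVCAR5 and 135, 265, and 207 in OVCAR5R (log2 fold change -1.05, adjusted p = 0.323, limma), and -1.22 without OVCAR5 replicate 2. The OVCAR5R libraries of TNS3 all lay below OVCAR5, whereas TLN2, a talin, overlapped at 20.7 to 76.4 in OVCAR5 and 15.8 to 44.0 in OVCAR5R.

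Of 12 tested receptors and integrin partners of other kinds (12 of 13 among the rows), 2 had a fold change above 0 and 10 below, with a median of -0.19, and 1 higher (CD44) and 1 lower gene (CD47) with an unadjusted p under 0.05. Both counts were 0 by limma without OVCAR5 replicate 2, and the median was -0.08. The genes in these parentheses were picked by the count, after their values were seen. CD44, the hyaluronan receptor, was at 499, 248, and 1320 in OVCAR5 and 1243, 1371, and 1703 in OVCAR5R (log2 fold change 1.38, adjusted p = 0.429, limma), and 0.81 without OVCAR5 replicate 2. DDR1, a collagen receptor kinase of epithelial cells, was at 133, 473, and 57.4 in OVCAR5 and 31.2, 132, and 78.7 in OVCAR5R, and its fold change of -1.15 was -0.34 without OVCAR5 replicate 2. CD81, a tetraspanin, and BCAM, a laminin receptor, overlapped with fold changes of 0.22 and -0.58.

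**Figure D5:**
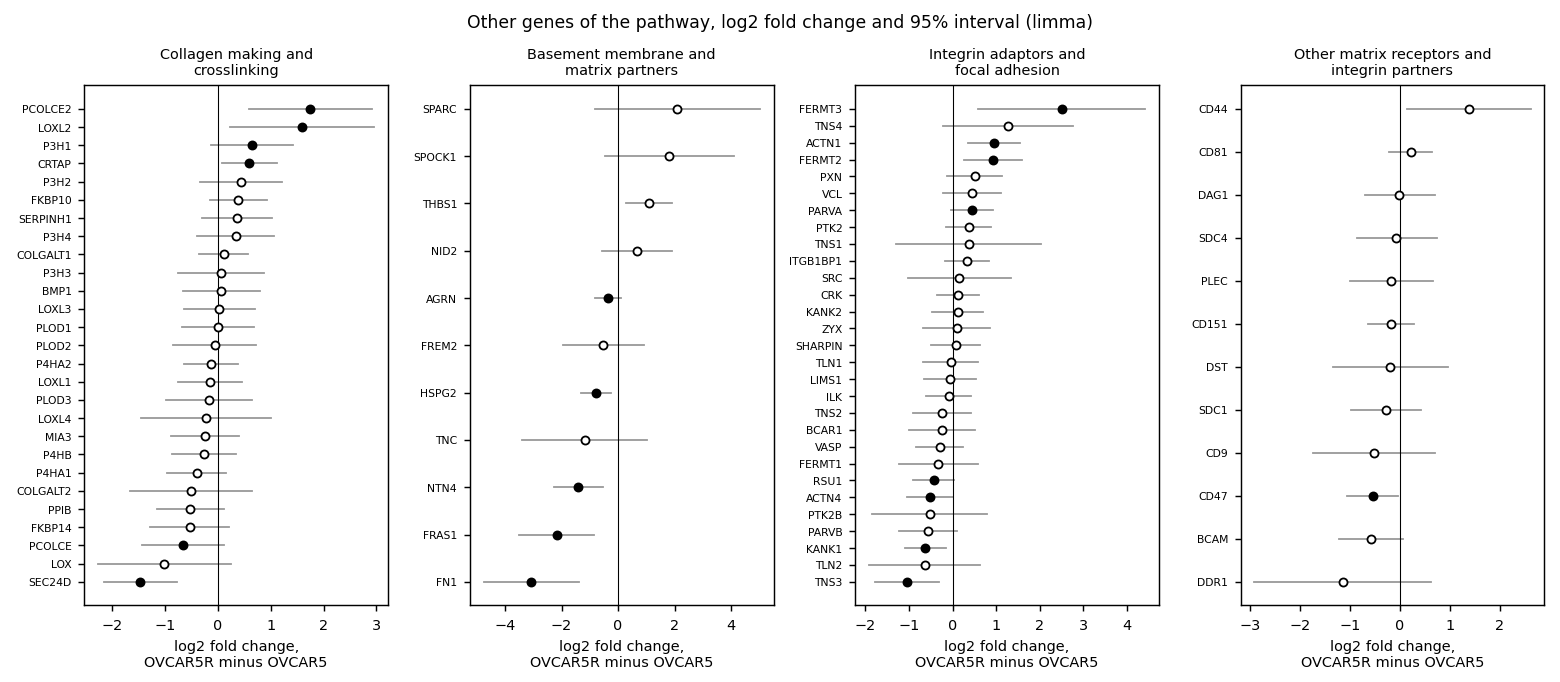
Log2 fold change (OVCAR5R minus OVCAR5, x axis) with the 95% interval by limma for the tested genes of the 4 lists of partners, 1 panel per list. Filled circles mark genes whose lines do not overlap and open circles those that overlap. FN1 at -3.08 and FERMT3 at 2.50 lie farthest out, and the panel of other receptors has 10 of 12 circles below 0.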

How the data were processed

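RNA-seq of total RNA from OVCAR5 and OVCAR5R (3 libraries each) was analyzed from a single table of signal on a linear scale that the authors deposited. The supplementary methods state quartile normalization and a log transform ahead of analysis, without saying in which state the table was deposited, and its values summed to 937274 to 1038240 per library. The build was hg38 per the labels, and the aligner, the counter, and the gene filter are not given in the sources used here. Between 61.7% and 65.3% of values were whole multiples (tolerance 0.005 steps) of a library's smallest step, so tests for counts were not used.

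Of 12309 rows, 1 was an identical copy. The log2(value + 1) scale was used, which understates the fold changes of low genes. Genes that reached 1 in 3 or more libraries entered limma (version 3.58.1, run in R 4.3.3, two-sided, eBayes with a trend), with Benjamini-Hochberg adjustment over 11766 genes. Depth was 35.8 to 55.1 estimated reads in units of 1e6, and 3 libraries per line limit precision. Members and lists were chosen with earlier results of these data known.

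Genes given singly are pairs of partner chains, the highest member of each family, up to 8 members each way without overlap and with a mean of at least 5, and from each list the 2 genes highest and the 2 lowest by fold change with that mean. Other members were named after their values were seen, and 1 member, kept in the counts and medians, is not reported here. Ratios were computed for 13 pairs from the fixed groups of partner chains (6 without overlap) and 3 pairs chosen later. Not every pair of a group was computed. Several pairs share a chain or hold a gene that separated the lines alone, and no share over other gene pairs was computed. The count is therefore not read as a result about the members. Positions and lengths came from GENCODE release 29, in which all 43 members and 12233 of 12305 symbols were found, and promoters from RefSeq, which held 29 members. The alternatives were a pseudocount of 0.1, no filter and a filter at 5, quantile normalization, no trend, the replicate number as a block, and each library left out in turn. Plots were made in Python 3.11.15 (matplotlib 3.10.9).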

Additional observations from a re-analysis of the deposited data

How the results depend on the processing

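The count of members past the adjusted threshold was 0 in each of 12 alternatives, and the members with an unadjusted p under 0.05, a count added after seeing the data, numbered 9, and 6 to 13 in the alternatives. Such a p was found for 4.14% of all genes higher and 6.25% lower over 6 libraries, and for 4.32% and 6.52% without OVCAR5 replicate 2. The genes called over the whole table numbered 14, and 0 to 29 with a library left out: 3 without OVCAR5 replicate 1, 29 without replicate 2, 10 without replicate 3, and 4, 2, and 0 without OVCAR5R replicates 1, 2, and 3. The replicate number as a block left 5 genes. Deviations from the line mean had an r of 0.00, 0.18, and -0.12 between libraries of the same number, so the numbers were not taken to pair the libraries, and the block changed no call among the members. With a library left out, also added after seeing the data, members without overlap numbered 6 to 11 higher, the most without OVCAR5R replicate 1, and 4 to 10 lower, with 10 without OVCAR5 replicate 2, 8 without OVCAR5 replicate 3, and 7 without OVCAR5R replicate 3. Fewer libraries make overlap less likely for any gene. Of all genes, 8.40% were higher and 8.18% lower without overlap over 6 libraries, and 13.8% and 13.7% without OVCAR5 replicate 2. The shares for the other left-out libraries are not given here, so those counts are not read as a result about the members. With a library left out, the median log2 fold change ranged from 0.14 (without OVCAR5 replicate 2) to 0.92 for collagens, from -0.15 (without OVCAR5 replicate 1) to 0.33 for laminins, and from -0.39 (without OVCAR5 replicate 2) to 0.11 (without OVCAR5 replicate 3) for integrins, and the stricter filter gave -0.02 for laminins. Of 40 members, 29 kept their sign in every alternative and 11 did not. Quantile normalization turned COL7A1 to 0.12 and ITGA3 to 0.10. With a library left out, the range was -0.95 to 0.07 for COL13A1, -0.06 to 0.38 for COL18A1, -0.17 to 1.25 for COL1A1, -0.73 to 0.67 for COL6A1, -0.08 to 1.41 for COL6A2, -0.78 to 0.75 for COL7A1, -0.28 to 0.99 for COL9A3, -0.34 to 0.13 for ITGA3, -1.03 to 0.37 for ITGB3, -0.10 to 0.79 for LAMB1, and -0.01 to 0.48 for LAMC1. The cause was not tested. With 3 libraries per line, an exact test cannot give a p under 0.1, and a normalized value of 1 rests on 34.5 to 55.2 estimated reads.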
